A study of Mus musculus with 6 samples.

Results

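The nuclear-encoded subunits of the mitochondrial respiratory chain and of ATP synthase were followed through quadriceps femoris RNA of wild-type mice and of mice carrying a truncated human RORalpha1. Members were all probes whose platform gene symbol names a numbered NADH dehydrogenase subunit (Nduf), a succinate dehydrogenase subunit (Sdha to Sdhd), a cytochrome bc1 subunit (Uqcr or Cyc1), a cytochrome c oxidase subunit (Cox4 to Cox8), an ATP synthase subunit (Atp5) or cytochrome c. The rule found 109 probes of 77 genes, among 46632 probes on the array and 17711 named genes. Complex I held 44 probes of 32 genes, complex II 6 probes of 4 genes, complex III 10 of 8, complex IV 23 of 17 and complex V 26 of 16. No probe carried the symbol Cycs in the annotation used here.

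The respiratory chain passes electrons from NADH (complex I) or succinate (complex II) through ubiquinone, complex III and cytochrome c to oxygen at complex IV, and complexes I, III and IV pump protons that drive ATP synthase, complex V. Several complex IV subunits exist as a ubiquitous form and a form made in heart and skeletal muscle: in rodents Cox6a1, Cox7a2 and Cox8a are the ubiquitous forms, and Cox6a2, Cox7a1 and Cox8b those of muscle. RORalpha is a nuclear receptor that binds DNA at sites with the core AGGTCA. The E region missing from the transgene product holds the ligand-binding domain.

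All mice were on a C57BL/6 background, were fed a diet with 4.6% fat under 12 h of light and 12 h of dark, and were fasted overnight and killed at 9 in the morning. The wild-type group had 3 arrays and the transgenic group 3, the latter with RORalpha1delDE, which lacks all of region E and part of the hinge, expressed in skeletal muscle from the human skeletal alpha-actin promoter. The sources used here give no age, sex or number of transgenic lines. All 6 arrays lay on 1 chip, the wild-type arrays in the first positions, so chip position and genotype cannot be told apart.

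Between 13979 and 14887 probes were detected per array. Arrays 1 and 2 of each group were averaged and counted as 1 sample: over 5236 bright probes, 0 differed by more than 2-fold between wild-type arrays 1 and 2 or between transgenic arrays 1 and 2, and what differed at one probe of a gene was not seen at its other probe (r = 0.034 and 0.032 across 525 genes, which are not independent). Between replicate 3 and arrays 1 and 2 of its group this r was 0.703 to 0.764. Comparisons below therefore set 2 samples against 2, and the result with 6 separate arrays is given where it differs. Of 7 skeletal muscle markers, 6 were kept, all but Myod1, with summed signals of 222349 to 224645 on wild-type and 229886 to 238356 on transgenic arrays. Acta1, Ttn, Ckm, Ckmt2 and Mb, which made up most of this sum, lay above a log2 level of 15. Whether signal follows RNA amount there was not tested. Des stood at 12.56, 12.60 and 12.90 in wild type and at 13.37, 13.15 and 13.24 in transgenic arrays. Transgenic replicate 3 stood apart in slow-fibre genes, and Ucp1 and Cidea, which mark brown adipocytes, were low in all transgenic arrays. Their values stand beside the results they touch.

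A probe was kept when it was detected on at least 3 of the 6 arrays. This kept 89 of the 109 probes, on 71 of the 77 genes, and 87 of the 89 were detected on all 6 arrays. The 6 genes with no kept probe were Ndufs1, Sdha, Uqcrfs1, Cox6b2, Cox7b2 and Cox8c. Ndufs1, Sdha and Uqcrfs1 encode catalytic subunits of complexes I, II and III, and as their probes were not well above background their transcripts could not be compared. Cox6b2, Cox7b2 and Cox8c are forms known from testis. Mean log2 levels of the kept subunit probes ran from 5.84 to 15.70. Of the 89, 16 had a mean above 15, against 97 of all 14420 kept probes (0.673%), whose highest mean was 15.74. Log2 levels below are normalised signals, and levels of different probes are not compared.

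No subunit probe passed an adjusted p of 0.05 in the limma fit over all 14420 kept probes, where 1 probe was lower (0.00693%) and 0 were higher (0%). At an unadjusted p under 0.05, 4 subunit probes were lower in transgenic muscle, against 4.15% of all kept probes, and 0 were higher, against 3.49%. The 4 probes were both of Cox6a1, the only kept one of Cox8a and the only kept one of Uqcrq. With 6 separate arrays 1 subunit probe passed, a Cox6a1 probe (limma, adjusted p = 0.0359), against 0.236% of all kept probes called lower and 0.139% called higher. Of the 89 probes 84 differed by less than 0.5 on the log2 scale, against 89.6% of all kept probes. The other 5 were all lower, against 6.07% of all kept probes at least 0.5 lower.

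The largest differences fell on the ubiquitous forms of 2 complex IV subunits, with their muscle forms near 0. Cox6a1 is the ubiquitous form of subunit 6a. Its brighter probe stood at 11.49, 11.34 and 11.69 on the 3 wild-type arrays and at 10.67, 10.60 and 10.65 on the 3 transgenic arrays. Every transgenic array lay below every wild-type array, and the transgenic arrays lay close together. The samples averaged 11.55 ± 0.20 without the transgene and 10.64 ± 0.012 with it (SD, n = 2 each). The difference was -0.91 ± 0.19 (log2, SE, 95% interval -1.37 to -0.46), or 1.88-fold lower (limma, adjusted p = 0.472). The second Cox6a1 probe stood at 11.48, 11.40 and 11.74 in wild type and at 10.57, 10.57 and 10.54 in transgenic arrays, and differed by -1.03 ± 0.19 (adjusted p = 0.435 from limma), 2.04-fold lower. Both probes are the same gene's and therefore not independent, and the sources used here do not say where in the transcript they lie.

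Cox6a2, the form of subunit 6a in heart and skeletal muscle, did not move alongside. It stood at 15.52, 15.46 and 15.47 in wild type and at 15.36, 15.46 and 15.58 in transgenic arrays, so the groups overlapped. The difference was 0.016 ± 0.18 (95% interval -0.41 to 0.45), and its sign was negative in 5 of 18 alternative settings. The Cox6a2 probe lies among the 0.673% of kept probes with a mean log2 level above 15, and whether its signal still follows RNA amount there was not tested.

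Subunit 8 showed the same split. Cox8a, the ubiquitous form, stood at 11.62, 11.37 and 11.79 on the wild-type arrays and at 10.94, 10.87 and 10.97 on the transgenic arrays. Again no transgenic array reached the lowest wild-type array. The difference was -0.70 ± 0.19 (log2, SE, 95% interval -1.17 to -0.24), or 1.63-fold lower (limma, adjusted p = 0.585, and 0.111 with 6 separate arrays). Cox8b, the muscle form, stood at 15.38, 15.35 and 15.36 in wild type and at 15.53, 15.65 and 15.35 in transgenic arrays. Transgenic arrays 1 and 2 were the highest and transgenic replicate 3 overlapped the wild-type arrays. Its difference was 0.10 ± 0.18 (95% interval -0.34 to 0.55), and its probe, too, lies above a log2 level of 15.

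The change of the ubiquitous form relative to the change of the muscle form was computed on each array. For Cox6a1 relative to Cox6a2 it lay between -0.20 and 0.15 on the wild-type arrays and between -1.01 and -0.76 on the transgenic arrays, a difference of -0.93 between the groups. For Cox8a relative to Cox8b the ranges were -0.26 to 0.15 and -1.05 to -0.66, a difference of -0.81. Both pairs separated the groups without overlap. A two-sided exact permutation test gave p = 0.333 for each pair with 2 samples against 2 and p = 0.1 with 3 arrays against 3, in each case the smallest p these designs allow. Cox6a1 and Cox8a were already without overlap on these same arrays and their partners moved little, so these p-values add nothing to that. The test on 3 arrays against 3 counts arrays 1 and 2 of a group as separate samples.

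The pattern was not seen at subunit 7a. Subunit 4 has a common and a low-oxygen form here, so its values cannot show whether the pattern extends. Cox7a2, the ubiquitous form of subunit 7a, lay between 10.01 and 10.70 on wild-type and between 10.24 and 10.38 on transgenic arrays, with a difference of -0.11 ± 0.24 that became 0.20 without wild-type replicate 3. Cox7a1, its muscle form, lay between 15.05 and 15.23 on wild-type and between 14.83 and 15.04 on transgenic arrays. It was lower in transgenic arrays without overlap, with a difference of -0.17 ± 0.18. The change of Cox7a2 relative to Cox7a1 differed by 0.060 between the groups (exact permutation test, p = 1 with 2 samples against 2 and 0.6 with 3 arrays against 3). Cox4i1, the common form of subunit 4, differed by 0.00077 ± 0.17, and Cox4i2, a form induced by low oxygen, by 0.059 ± 0.19 (exact permutation p for the pair 0.667, and 0.6 with 3 arrays against 3). The interval for Cox7a2 ran from -0.71 to 0.49, so a fall as large as that of Cox8a lay just inside it.

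**Figure D1:**
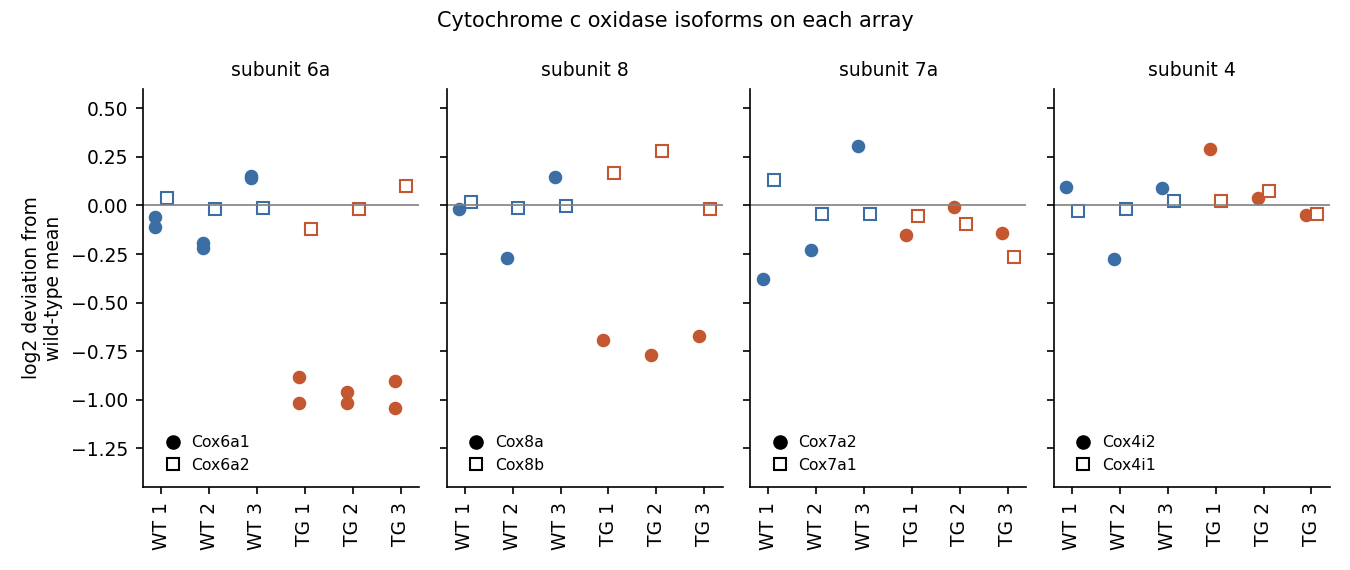
Log2 deviation from the wild-type mean (vertical axis) on each of the 6 arrays (horizontal axis; WT wild type, TG transgenic) for the ubiquitous or low-oxygen form (filled circles, both kept probes for Cox6a1) and the muscle or common form (open squares) of 4 complex IV subunits. All 3 transgenic arrays lie below all 3 wild-type arrays for Cox6a1, Cox8a and the muscle form Cox7a1, and not for the other forms shown.

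Sequence upstream of the start is shown for Cox6a1 and Cox8a, the genes with the largest differences, and for Cox8b, the muscle partner of Cox8a. These are 250 bases before the annotated start, 5′ to 3′ on the gene's strand, from RefSeq promoters of build GRCm38.p6. Capitals mark matches to the motifs described next.
Cox6a1, chr5:115348959-115349208, minus strand: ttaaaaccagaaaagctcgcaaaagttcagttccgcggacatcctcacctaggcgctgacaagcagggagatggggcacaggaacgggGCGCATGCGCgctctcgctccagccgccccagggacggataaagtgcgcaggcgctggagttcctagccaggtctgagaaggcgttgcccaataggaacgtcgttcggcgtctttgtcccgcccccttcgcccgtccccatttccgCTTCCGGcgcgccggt
Cox8a, chr19:7217617-7217866, minus strand: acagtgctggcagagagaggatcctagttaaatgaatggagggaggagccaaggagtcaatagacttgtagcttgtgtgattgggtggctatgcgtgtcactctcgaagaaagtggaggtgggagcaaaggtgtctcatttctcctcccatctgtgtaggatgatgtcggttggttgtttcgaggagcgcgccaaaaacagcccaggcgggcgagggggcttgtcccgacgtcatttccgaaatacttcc
Cox8b, chr7:140900447-140900696, minus strand: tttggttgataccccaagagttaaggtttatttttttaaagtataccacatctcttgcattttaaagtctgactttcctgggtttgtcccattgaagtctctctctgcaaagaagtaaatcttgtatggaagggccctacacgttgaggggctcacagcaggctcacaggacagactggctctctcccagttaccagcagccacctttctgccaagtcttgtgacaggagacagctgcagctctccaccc

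The searched motifs, on both strands, were the full NRF1 site (NRF1 is a regulator of respiratory genes) and GCATGCGC, which lies within it, CCGGAAG (the core of ETS factors such as GABPA), AAGATGGC (YY1), AGGTCA (the ROR core), TAGGTCA, which contains it, and TCAAGGTCA (ERR), which contains AGGTCA as well. Cox6a1 held the full NRF1 site, with GCATGCGC within it, and CTTCCGG, the reverse complement of CCGGAAG. Cox8a and Cox8b held none of the 7 motifs in this window, and none of the 3 held AGGTCA. Among the 62 member genes with a promoter entry, 17.7% held AGGTCA, against 15.8% of 27025 genes in the table. CCGGAAG was held by 17.7% of member promoters (11 genes) against 7.83% of all, and GCATGCGC by 11.3% (7 genes) against 2.56%. The full NRF1 site was held by 4.84% (3 genes) against 0.877%. AAGATGGC was held by 1.61% (1 gene) against 1.83%, TAGGTCA by 3.23% (2 genes) against 2.55% and TCAAGGTCA by 1.61% (1 gene) against 0.422%. Shares that rest on so few genes are imprecise. A match is a description of letters and no evidence of binding.

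Markers of other cells moved with the 2 ubiquitous forms in part. Of 6 brown adipocyte markers other than the members Cox7a1 and Cox8b, 5 were detected on some array and Elovl3 on none, and their summed signal was 6830 to 11015 on wild-type and 692 to 835 on transgenic arrays. Ucp1, which uncouples respiration in brown fat, was detected on all wild-type and none of the transgenic arrays. Ppargc1a, a coactivator of mitochondrial genes also used by muscle, did not follow: it stood at 8.22, 8.27 and 8.88 without the transgene and at 8.84, 9.01 and 8.61 with it. Of 5 cardiac muscle markers, Nppa and Myh6 were never detected. Actc1, which made up most of their summed signal, was lower on all transgenic arrays (11.39 to 11.99 against 12.18 to 13.46), while Tnnt2 and Tnni3 were not, and the median deviation of the list on the transgenic arrays was 0.096, 0.36 and -0.077. The part of these markers in the Cox6a1 and Cox8a difference was not tested. In bulk RNA, fewer cells of a type and less RNA per cell cannot be told apart. Of the general adipocyte markers, 7 of 8 were on the array and Fabp4, Retn and Lep were never detected. Their summed signals were 26817 to 31458 on wild-type and 26299 to 30766 on transgenic arrays. Lpl, at 14.52 to 14.76 in wild type and 14.49 to 14.86 in transgenic arrays, made up most of this sum. The median deviation of the 3 kept markers on the transgenic arrays was -2.02, -2.06 and -0.22. Cidec stood at 10.76, 10.70 and 10.62 in wild type and at 8.28, 8.23 and 10.18 in transgenic arrays. Adipoq, the fat-cell hormone adiponectin, was at 9.25 and 9.21 on transgenic arrays 1 and 2 and at 11.05 on transgenic replicate 3, against 10.67 to 11.79 in wild type. Cox6a1 was as low on transgenic replicate 3 as on the other 2 transgenic arrays, and Ucp1 and Cidea were low on all 3. The part of the adipocyte markers in the Cox6a1 difference was not tested either. Without transgenic replicate 3 the Cox6a1 difference was -0.92 and that of Cox8a -0.73.

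Complex IV as a whole had 18 kept probes, with a median difference of -0.080, 11 below and 7 above 0. This median moved with the processing more than the spread between samples, from -0.17 with median centring to -0.0072 with 1 probe per gene, and was below 0 in every setting run. Cox7c, a small nuclear-encoded subunit, averaged 15.45 ± 0.095 without and 15.12 ± 0.19 with the transgene at its brighter probe (SD, n = 2 each), a difference of -0.33 ± 0.19 (-0.20 without transgenic replicate 3), while its second probe differed by -0.11 ± 0.18. Of all 89 subunit probes, 8 lay lower on all 3 transgenic than on all 3 wild-type arrays, 9.76% of all kept probes doing so, and 4 lay higher, against 12.1%. The 8 were both probes of Cox6a1 and 1 each of Cox8a, Cox7a1, Uqcrq, Ndufv3, Atp5a1 and Atp5l. The 4 were probes of Ndufa2, Ndufs3, Uqcr11 and Cox5a. Over 2 samples against 2 the counts were 21 lower and 10 higher, against 18.1% and 21.6% of all kept probes.

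**Figure D2:**
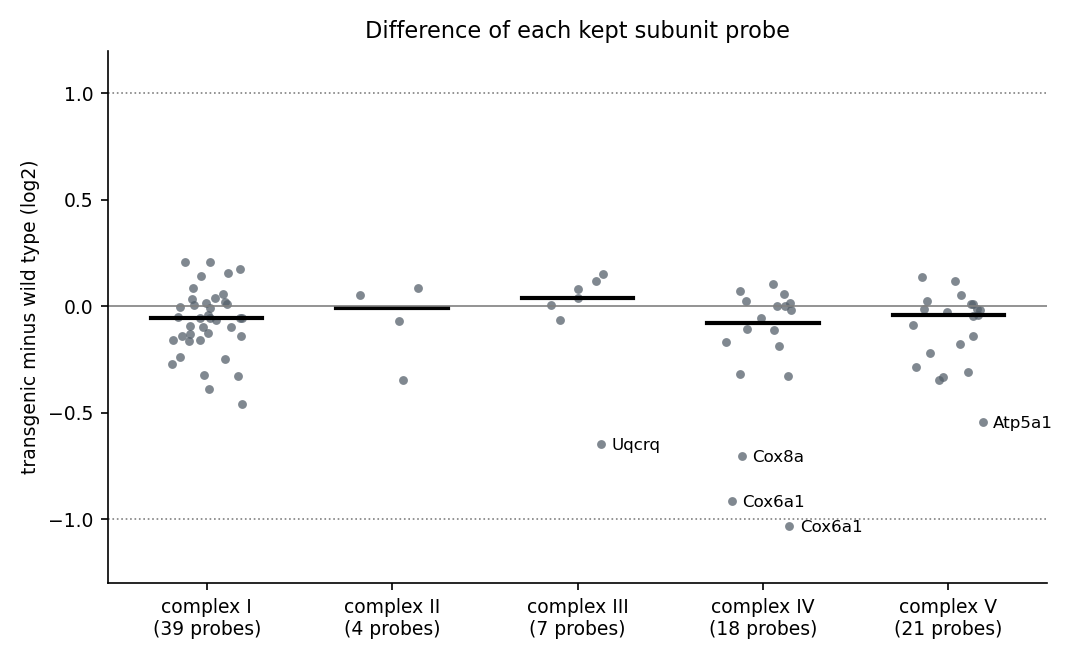
Transgenic minus wild-type difference (log2, vertical axis) of each of the 89 kept probes (points), by complex, with the median of each complex as a black bar. Dotted lines mark a 2-fold difference. Probes of 4 genes, Cox6a1, Cox8a, Uqcrq and Atp5a1, lie more than 0.5 below 0.

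Complex I, the NADH dehydrogenase, had 39 kept probes, 26 below and 13 above 0, with a median of -0.055 and a range from -0.46 to 0.21. Leaving out wild-type replicate 3 gave a median of -0.0024, and leaving out transgenic replicate 3 one of -0.0050. The lowest p among its genes belonged to Ndufv3, an accessory subunit of the NADH-binding module. Ndufv3 stood at 13.89, 13.82 and 13.98 in wild type and at 13.64, 13.60 and 13.44 in transgenic arrays, without overlap. The difference was -0.39 ± 0.18 (limma, adjusted p = 0.662), and a dim second probe, detected on 1 of 3 transgenic arrays, differed by -0.32. Ndufv2, an iron-sulphur subunit of the same module, was at 13.09 ± 0.17 and 12.76 ± 0.20 (SD, n = 2 each), a difference of -0.33 ± 0.20 that was -0.18 without transgenic replicate 3 and -0.21 when wild-type replicate 3 was left out.

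Ndufb6, an accessory subunit of the membrane arm, differed by -0.25 ± 0.20, and by -0.060 without wild-type replicate 3. Ndufs3, a core subunit of the arm that reaches into the matrix, had its brighter probe at 14.15, 14.07 and 14.04 in wild type and at 14.28 on all 3 transgenic arrays. The transgenic arrays were higher without overlap, with a difference of 0.21 ± 0.17, but its second probe differed by -0.13 ± 0.22. Ndufa4, named as a complex I gene and since assigned to complex IV, differed by -0.057 ± 0.17. No probe carried the symbol Ndufa4l2 or Cox7a2l in the annotation used here.

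Complex II, succinate dehydrogenase, is wholly nuclear-encoded and also belongs to the TCA cycle. Sdhb, its iron-sulphur subunit, lay between 14.02 and 14.26 on wild-type and between 14.10 and 14.37 on transgenic arrays and differed by 0.051 ± 0.19. The membrane anchors Sdhc and Sdhd differed by 0.088 ± 0.19 and -0.068 ± 0.18. In all 3 the groups overlapped. A dim second probe of Sdhb, detected on 2 of 3 transgenic arrays, differed by -0.34 ± 0.22. Over the 4 kept probes the median was -0.0084.

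In complex III, cytochrome bc1, 5 of 7 kept probes lay above 0, with a median of 0.040 that fell below 0 with median centring (-0.052), with no detection filter (-0.029) and without wild-type replicate 3 (-0.033). Uqcrq, a small subunit that binds ubiquinone, was the furthest below 0, with levels of 7.94, 8.15 and 8.21 in wild type and 7.72, 7.66 and 7.28 in transgenic arrays. The groups did not overlap and transgenic replicate 3 was lowest. The difference was -0.65 ± 0.21 (95% interval -1.16 to -0.13, limma, adjusted p = 0.638), and without transgenic replicate 3 it was -0.44. A second Uqcrq probe was detected on no array. Uqcr11, Uqcrc2, a core protein, and Uqcrb differed by 0.15 ± 0.17, 0.12 ± 0.18 and 0.080 ± 0.18, and Cyc1, cytochrome c1, by -0.063 ± 0.19.

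Complex V, ATP synthase, had 21 kept probes, 15 below and 6 above 0, with a median of -0.040 that turned to 0.019 without transgenic replicate 3 and was -0.0085 when wild-type replicate 3 was left out. Its catalytic beta subunit Atp5b averaged 15.31 ± 0.10 without and 15.44 ± 0.056 with the transgene (SD, n = 2 each) and differed by 0.14 ± 0.18. The 3 genes of the c subunit, which forms the rotor ring, differed little: Atp5g1 by 0.12 ± 0.17, Atp5g2 by -0.086 ± 0.19 and Atp5g3 by 0.054 ± 0.17. Atp5l, the g subunit of the membrane part, differed by -0.22 ± 0.18 (-0.13 without transgenic replicate 3) at its brighter and -0.31 ± 0.18 at its dimmer probe.

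Atp5e, the epsilon subunit of the central stalk, was at 8.72 and 8.77 on transgenic arrays 1 and 2 but at 7.83 on transgenic replicate 3, against 8.45 to 8.70 in wild type. Its difference of -0.33 ± 0.32 became 0.12 without that replicate. Atp5o, a subunit of the peripheral stalk, spanned 6.06 to 7.03 on the wild-type arrays, wide enough to hold all 3 transgenic arrays, and differed by -0.28 ± 0.31, which became 0.16 without wild-type replicate 3 and -0.16 when transgenic replicate 3 was left out. The 2 probes of Atp5a1, the alpha subunit, disagreed by 0.55, the widest gap among the 16 genes with several kept probes (median gap 0.20): the brighter differed by 0.012 ± 0.18 and the dimmer by -0.54 ± 0.23.

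**Figure D3:**
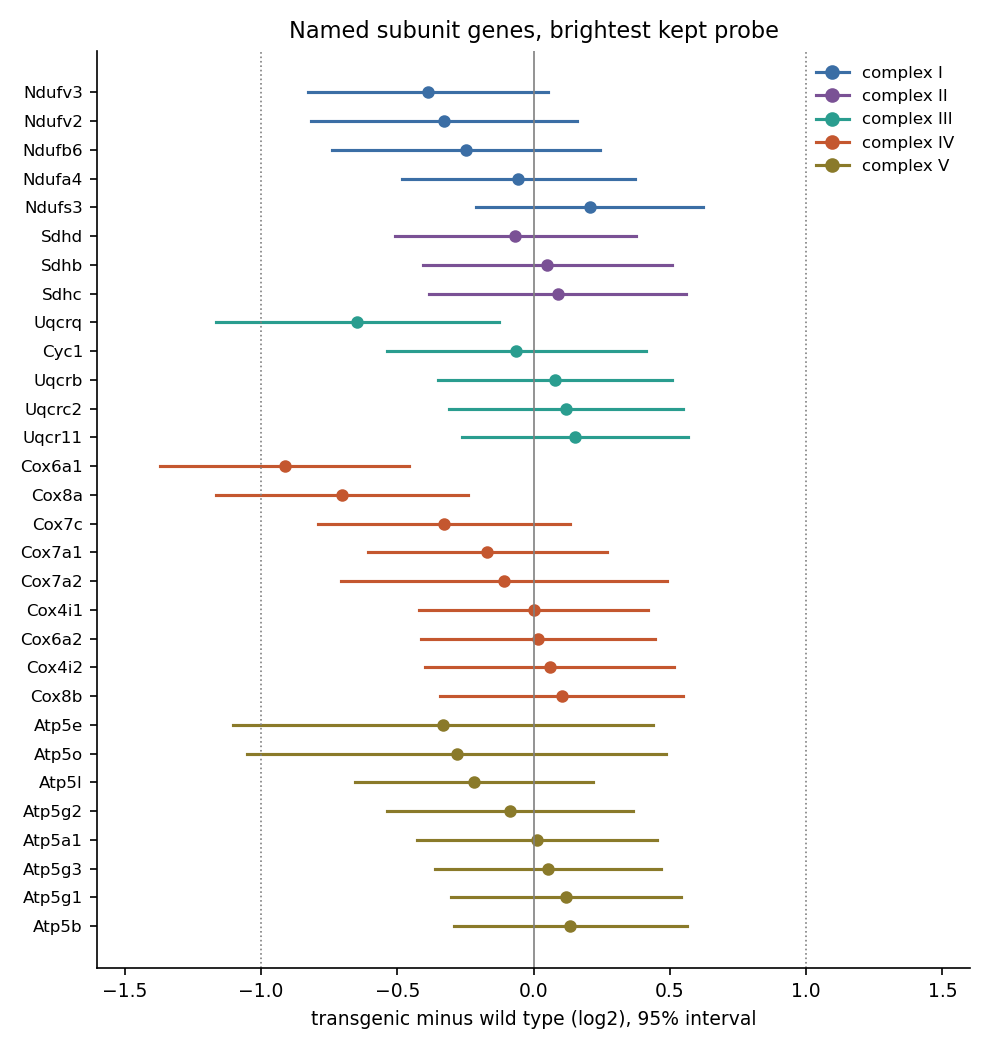
Transgenic minus wild-type difference (log2, points) with its 95% interval from limma (lines) for the brightest kept probe of each named gene, coloured by complex. Dotted lines mark a 2-fold difference. The intervals of Cox6a1, Cox8a and Uqcrq lie wholly below 0 before adjustment for the number of probes tested.

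The 95% intervals rest on 2 samples per group. Of the 89 kept probes, 16 had a mean log2 level above 15, where whether signal follows RNA amount was not tested. For 81 of the 89 the interval lay within 2-fold either way, against 83.3% of all kept probes. The 8 exceptions were both Cox6a1 probes and single probes of Cox8a, Uqcrq, Ndufb8, Atp5a1, Atp5e and Atp5o. The median absolute difference between the groups over the subunit probes was 0.098, against 0.083 and 0.087 between arrays 1 and 2 of the wild-type and transgenic groups and 0.15 and 0.11 between replicate 3 and the other arrays of each. The first is a difference of means of 2 samples, the others of single arrays or samples, so their sizes are not directly comparable. Over all kept probes the difference between the groups was 0.184, with 0.155 and 0.147 between arrays 1 and 2 of the wild-type and transgenic groups. Over all members the median difference was -0.054, with 56 of 89 below and 33 above 0, while the median of all kept probes was 0.018 with 47.2% below and 52.8% above 0. With 1 probe per gene the members' median was -0.014 and 38 of 71 lay below 0.

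The complexes differed among samples of one genotype. Relative to the wild-type mean, the median subunit probe stood at -0.060 and -0.059 on wild-type arrays 1 and 2, at 0.074 on wild-type replicate 3, at -0.0092 and 0.013 on transgenic arrays 1 and 2 and at -0.095 on transgenic replicate 3. On wild-type array 1 complex V had a median of -0.13, and on wild-type array 2 complex II had one of -0.15. Complex III was above 0 on both, at 0.046 and 0.021. On transgenic replicate 3 all 5 complexes had a median below 0, between -0.11 and -0.044, so single complexes were lower on a wild-type array. On the same array the 9 kept slow-fibre markers, genes of the oxidative slow fibre such as Myl3 and Tnnc1, had a median of -3.34, and their summed signal was 10250, against 84855 to 94172 on wild-type arrays and up to 129367 on the other transgenic arrays. The 10 fast-fibre markers had a median of 0.066 there. Of the 9, 8 were lowest there by a wide margin, and Casq2, at 7.16 against 7.19 to 7.88 in the other arrays, was not far below. The same array had the fewest detected probes (13979) and the lowest median signal (154.5, against 165.9 to 174.9). Its macrophage marker sum was 1429, against 626 to 867 in wild type. Its fibroblast markers had a median of 0.53, against -0.27 to 0.34 in wild type. Their summed signal of 21341 lay within the wild-type range of 14400 to 21680. The part of these in the subunit medians was not tested. Without transgenic replicate 3 the median over all subunit probes was 0.0066.

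**Figure D4:**
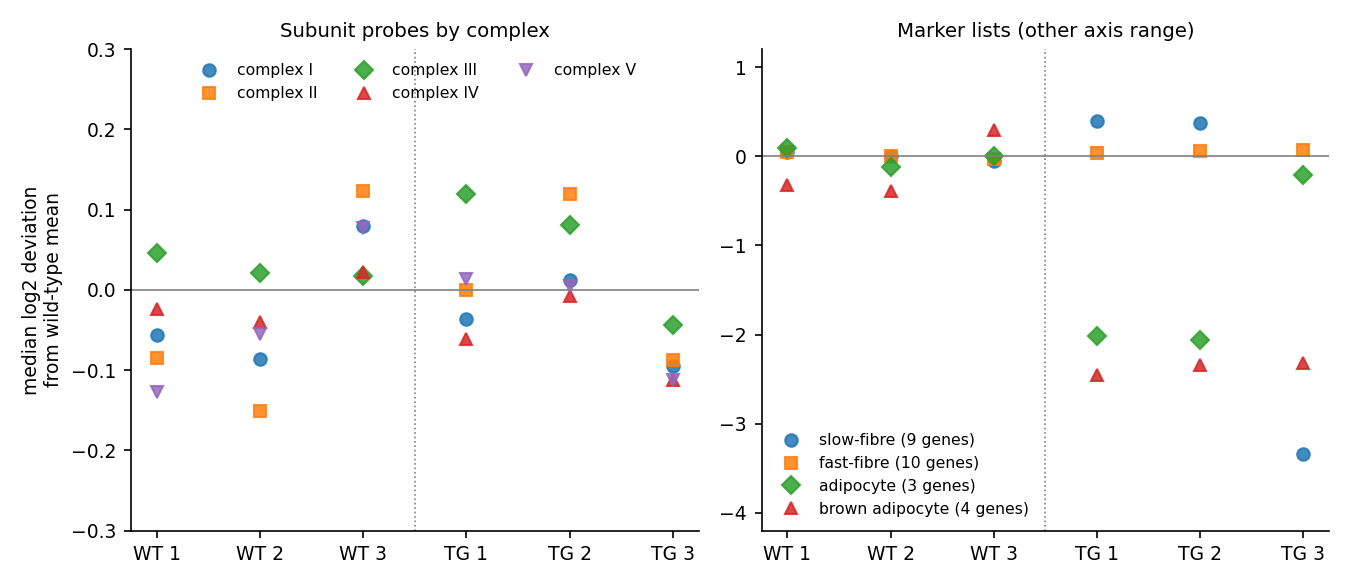
Median log2 deviation from the wild-type mean (vertical axes, different ranges) on each array (WT wild type, TG transgenic) for the kept probes of each complex (left) and for marker lists of fibre types and adipocytes (right). Transgenic replicate 3 has slow-fibre markers at -3.34 and complex medians between -0.11 and -0.044. Complex V on wild-type array 1 (-0.13) and complex II on wild-type array 2 (-0.15) lie lower.

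Genes that serve the chain without being subunits were read from lists of the pathway. Of 47 assembly factors 43 were named on the array, and 51 probes of 38 genes were kept. Their median was 0.0042, with 0 past the threshold. At an unadjusted p under 0.05 (limma), 1 probe was lower, against 4.15% of all kept probes, and 1 higher, against 3.49%. The lower one was of Pet100, a complex IV assembly factor, and differed by -0.48 ± 0.19. The higher one was a dim probe of Taco1 and differed by 0.43 ± 0.17, with 0.28 ± 0.21 at the brightest probe of that gene. Ttc19, of complex III, and Coa5, of complex IV, differed by 0.38 ± 0.17 and 0.38 ± 0.17.

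In a list of 9 gene symbols for ATP synthase inhibition and nucleotide exchange, all 8 on the array were kept, with a median of 0.034. None (0) passed the threshold, and Atpif1 and Atp5if1 in the list name the same gene. The ADP/ATP carriers again comprise a widespread and a muscle form. Slc25a5, the widespread carrier, stood at 12.23, 12.35 and 12.22 in wild type and at 11.83, 11.92 and 11.73 in transgenic arrays, without overlap and with a difference of -0.45 ± 0.18 (limma, adjusted p = 0.647). Slc25a4, the carrier of heart and skeletal muscle, stood at 11.21, 11.23 and 11.26 in wild type and at 11.42, 11.49 and 11.74 in transgenic arrays, without overlap and with a difference of 0.36 ± 0.19 (limma, adjusted p = 0.694). Atpif1, which inhibits ATP hydrolysis, differed by 0.11 ± 0.18. Among the dehydrogenases that feed ubiquinone, 11 probes of 7 genes had a median of -0.057 and 0 past the threshold. Prodh differed by -0.32 ± 0.25, Gpd2 by 0.14 ± 0.20 and Etfdh by -0.14 ± 0.20 at its brightest probe. A dim second probe of Etfdh stood at 6.70, 6.77 and 6.85 without the transgene and at 5.79, 5.66 and 5.77 with it, a difference of -1.04 ± 0.17 (limma, adjusted p = 0.399), so the 2 probes disagreed. No probe carried the symbol of a mitochondrially encoded subunit in the annotation used here, so those subunits were not analysed.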

How the data were processed

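RNA of 6 quadriceps samples was measured on 1 Illumina mouse BeadArray chip. The deposited intensity values are bead-averaged signals on a linear scale from BeadStudio 2.3.41, per the submitters' processing notes. The deposited detection p-value columns, so named per the file headers, rise with signal and were read as 1 minus p. The deposited log2 table holds log2 signals shifted by 1 constant for each array and centred on the probe's median.

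Signal rows were displaced against probe identifiers by 0 to 21 rows. They were matched to the log2 table within 0.002, which placed 46611 of 46632 probes, all 109 members among them. Intensities were normalised with neqc (limma 3.58.1, R 4.3.3, Python 3.11.15; offset 16, quantile) and the 14420 probes with a detection p below 0.05 on 3 or more arrays were kept. Gene names came from the platform annotation table.

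limma (lmFit, eBayes, two-sided, Benjamini-Hochberg over all kept probes) compared the groups. Arrays 1 and 2 of each group were averaged because they differed by no more than measurement noise. Whether arrays came from separate mice is not in the labels: p-values reflect only how far these samples scatter, possibly for technical reasons. The number of arrays limits the precision. Alternatives covered sample averaging, background, scaling, filters and each array left out. Named genes were, per complex, the 4 with the smallest p, any past the threshold in either fit, tissue isoforms, all Sdh genes, Cyc1 and Cycs, genes without a kept probe and genes whose probes disagreed by over 0.5, plus 3 per pathway list. A few others were named after their values were seen, because they belonged to a count without overlap, with a wide interval or with a small unadjusted p. Members, lists and tests were chosen with earlier results of these data known.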

Additional observations from a re-analysis of the deposited data

How the results depend on the processing

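Under 18 alternatives, 31 named genes and probes gave 557 values, 528 with the sign of the reported difference. In 28 the sign changed with the reported and the changed value both less than 1 SE from 0. Atp5e, reported at just over 1 SE below 0, was between -0.38 and 0.12 over the arrays left out in turn, above 0 without transgenic replicate 3. Cox6a1, at its brighter and second probe, Cox8a and Uqcrq stayed below 0 in all settings run, between -0.99 and -0.77, -1.11 and -0.88, -0.78 and -0.56, and -0.73 and -0.39. Their smallest adjusted p-values (limma), all with 6 separate arrays, were 0.0562, 0.0359, 0.111 and 0.187, and the largest were 0.9998 without transgenic replicate 3. With 6 separate arrays 1 subunit probe passed the threshold, and 8 lay lower and 4 higher without overlap. The other 17 alternatives gave 0 subunit probes past it. Leaving out 1 array moved the complex IV median between -0.10 and -0.017, and the median of all subunit probes between -0.066 and 0.0066. The complex IV median was -0.032 with 6 separate arrays, -0.0072 with the brightest probe per gene, -0.17 with median centring, -0.015 with no detection filter and -0.11 on the log2 values as deposited. Median centring gave -0.15 for complex I and -0.052 for complex III, with the median of all kept probes at -0.059 (0.018 in the reported fit). The cause of these moves was not tested.

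With the replicate number as a block, no subunit probe passed, with 4 averaged samples or with 6 separate arrays. The replicate block on 6 arrays gave a complex IV median of -0.032 and moved the calls over all kept probes from 54 to 15, with 1 and 1 for the averaged samples. Same-numbered samples share only a number: their deviations from the group means correlated at 0.00046, 0.023 and 0.062, and not every sample correlated best with its own number.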

Other observations

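No gene of the TCA cycle or of ubiquinone synthesis passed the threshold. Over their kept probes the median absolute difference between genotypes was 0.181 and 0.191, against 0.098 over the subunit probes and 0.184 over all kept probes. Arrays 1 and 2 differed by 0.132 (wild type) and 0.124 (transgenic) in the TCA list and by 0.182 and 0.157 in the ubiquinone list. The subunit probes had 0.083 and 0.087 there and all kept probes 0.155 and 0.147, so measurement spread was lowest for the subunits too. Its part in their smaller difference was not tested. Of 14 TCA cycle genes 12 were on the array, and their 20 kept probes had a median of 0.0093, with 9 below 0 and 0 past the threshold. At an unadjusted p under 0.05 (limma), 1 probe was lower, of Idh3b, against 4.15% of all kept probes, and 1 higher, against 3.49%. The higher one was a dim probe of Sucla2, with a difference of 0.48 ± 0.20, while the brightest Sucla2 probe differed by 0.048 ± 0.18. Idh3b, a regulatory subunit of the NAD-linked isocitrate dehydrogenase, stood at 9.30, 9.46 and 9.96 in wild type and at 8.92, 9.05 and 8.78 in transgenic arrays. No transgenic array reached a wild-type one, and the difference was -0.79 ± 0.25 (limma, adjusted p = 0.631). Idh3a, the catalytic subunit, stood at 12.93, 12.97 and 13.03 in wild type and at 13.17, 13.25 and 13.17 in transgenic arrays, without overlap and with a difference of 0.20 ± 0.17 (limma, adjusted p = 0.783). Idh3g, the other regulatory subunit, differed by 0.28 ± 0.18.

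Of 13 gene symbols of ubiquinone synthesis, among them Coq8a and Adck3 for the same gene, 8 were on the array. The 10 kept probes of 7 genes had a median of 0.0090, with 0 past the threshold. Coq3, a methyltransferase of the pathway, was detected on all wild-type but 1 of 3 transgenic arrays and differed by -0.57 ± 0.36. Coq9, a lipid-binding protein of the pathway, stood at 12.99, 13.17 and 12.94 in wild type and at 13.23, 13.23 and 13.33 in transgenic arrays, a difference of 0.27 ± 0.18. Coq2, which attaches the isoprenoid tail, differed by 0.16 ± 0.18.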
